A study of Mus musculus with 8 samples.

Results

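The epidermal growth factor (EGF) family ligands and their ErbB receptors were followed in mouse bladder after partial outlet obstruction. The 10 genes were taken by symbol from the 38926 symbols counted in every library: the ligands Hbegf, Areg, Ereg, Tgfa, Egf, Btc and Nrg1, and the receptors Egfr, Erbb2 and Erbb3. All 10 passed the filter on low counts and were tested among 16370 genes. Whole bladder polyA RNA was sequenced in 4 NeMO libraries, from mice with a surgical partial obstruction of the bladder outlet that leaves the nerves intact, and in 4 Sham libraries, from sham-operated mice. No gene was altered in either group as far as the labels say, and the labels give neither strain, sex and age nor the time after surgery. Whether the libraries of a group came from separate animals is not stated, so p-values cover the spread between these samples, which may be technical. Because whole tissue was used, fewer cells of a type and less RNA per cell cannot be told apart. Library totals ran from 29451800 to 36375313 counts in NeMO and from 27212499 to 33459048 in Sham, so that 1 CPM (counts per 1000000 reads, scaled by TMM) stood for 26.3 to 36.1 reads. By the marks in the file names, 2 NeMO and 3 Sham libraries belonged to batch 1, whereas batch 2 comprised 2 NeMO libraries and a single Sham library (replicate 4).

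EGF family ligands are made as membrane-anchored precursors, and metalloproteinases such as ADAM17 and ADAM10 release the soluble growth factor. A ligand brings ErbB receptors together in pairs, which phosphorylate each other and switch on the RAS-ERK and PI3K-AKT pathways. ErbB2 has no known ligand of its own and ErbB3 has a weak kinase, so both act mainly through partners. In bladder, EGF receptor signalling is best known for its part in urothelial growth and repair, and in smooth muscle it can promote growth under stretch.

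Promoter sequences from RefSeq (GRCm38.p6) were available for 6 of the 10 genes. Those of Egfr, Tgfa and Areg are shown because Egfr was the gene whose NeMO and Sham libraries were separate, Tgfa was the most abundant ligand with little spread, and Areg was among the most variable. Each is the 250 bases upstream of the annotated start, 5′ to 3′ on the plus strand, at chr11:16751953-16752202 for Egfr, chr6:86194972-86195221 for Tgfa and chr5:91139349-91139598 for Areg. Capitals mark matches, on either strand, to any of 4 motifs. The first motif was the GC box, spelled GGGCGG. The second was the TATA box, spelled TATAAA in the search. The third was the cyclic AMP response element, spelled TGACGTCA. The last motif was the AP-1 site, spelled TGANTCA.
Egfr: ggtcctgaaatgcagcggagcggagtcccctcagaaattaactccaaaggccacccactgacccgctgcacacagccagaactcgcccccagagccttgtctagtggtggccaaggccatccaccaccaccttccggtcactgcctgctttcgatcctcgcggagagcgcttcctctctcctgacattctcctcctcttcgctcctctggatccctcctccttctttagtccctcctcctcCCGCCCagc
Tgfa: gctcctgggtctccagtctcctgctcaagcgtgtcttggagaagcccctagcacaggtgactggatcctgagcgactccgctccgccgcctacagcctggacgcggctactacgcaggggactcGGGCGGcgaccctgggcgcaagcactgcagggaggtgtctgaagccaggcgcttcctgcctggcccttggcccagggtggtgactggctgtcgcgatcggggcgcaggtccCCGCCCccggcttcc
Areg: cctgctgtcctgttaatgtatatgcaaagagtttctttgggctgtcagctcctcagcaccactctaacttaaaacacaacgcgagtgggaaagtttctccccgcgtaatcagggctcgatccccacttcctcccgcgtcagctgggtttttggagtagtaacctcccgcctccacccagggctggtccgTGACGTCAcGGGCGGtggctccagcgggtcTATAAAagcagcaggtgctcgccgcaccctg
The Egfr window held 1 GC box and no match to the other motifs, and the Tgfa window held 2 GC boxes. The Areg window held 1 cyclic AMP response element, 1 GC box and 1 TATA box, none of which overlapped. Among the 32851 upstream windows in the table, 32.7% held a GC box, 12.4% a TATA box, 6.75% an AP-1 site and 1.55% a cyclic AMP response element. The GC content was 60.8% for Egfr, 69.2% for Tgfa and 57.2% for Areg, against a median of 52.4% over all windows. These matches describe the letters in the windows and were not linked to any measured binding.

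The 10 genes spanned a wide range of levels, which was compared per kilobase of exon. Erbb2 stood highest at 23.0 ± 3.20 CPM per kilobase (mean ± SD over all 8 libraries) and Erbb3 next at 22.1 ± 1.92 CPM per kilobase, and their libraries overlapped. Tgfa followed at 11.97 ± 1.39 CPM per kilobase and Egfr at 5.03 ± 0.944 CPM per kilobase, each clear of its neighbours in every library. Hbegf (1.26), Areg (1.05), Ereg (1.00) and Btc (0.833 CPM per kilobase) overlapped with each other. Egf (0.135) and Nrg1 (0.0654 CPM per kilobase) were lowest, and their libraries overlapped. The order of the means was the same when the longest transcript was taken as the length, although Hbegf then stood at 2.11 CPM per kilobase and Tgfa at 17.2 CPM per kilobase. The bladder pool of these ligand transcripts was thus mostly Tgfa, which made up 72.0 ± 7.49% of the summed ligand level per kilobase in NeMO and 74.7 ± 3.05% in Sham (SD, n = 4 each). Erbb2 made up 45.1 ± 2.32% of the summed receptor level in NeMO and 46.5 ± 3.38% in Sham, and Egfr 11.04 ± 2.74% in NeMO and 9.20 ± 0.863% in Sham.

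**Figure D1:**
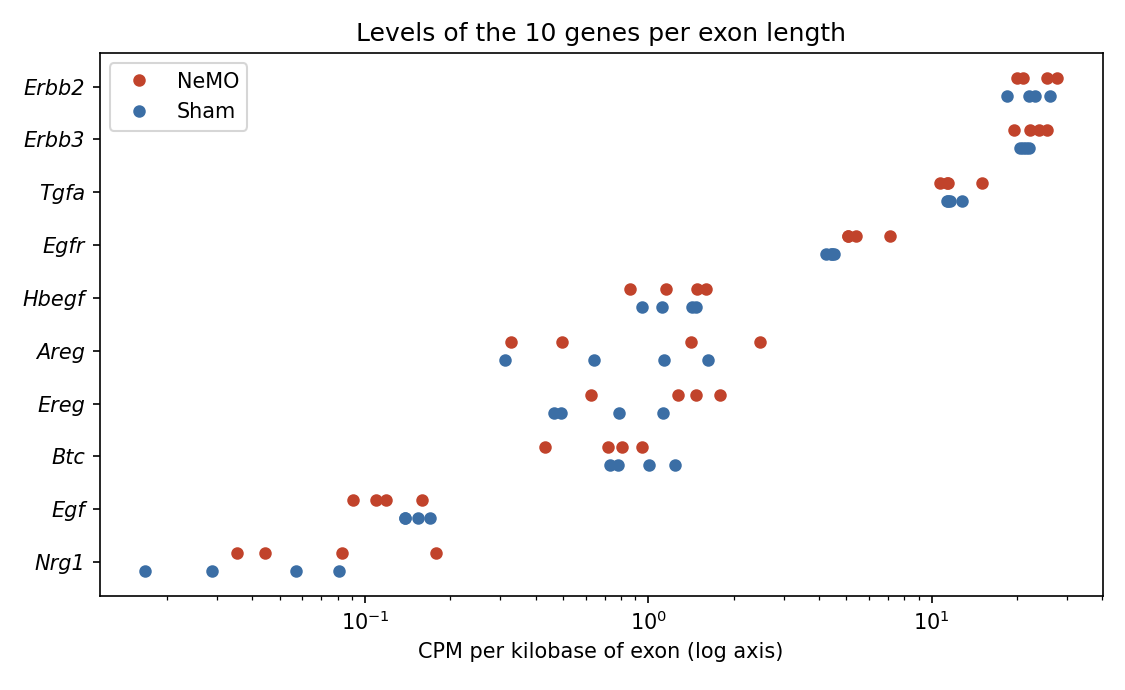
Level of each of the 10 genes in CPM per kilobase of exon, on a log axis, with a point per library and NeMO above Sham in each row. Erbb2 and Erbb3 average 23.0 and 22.1, Tgfa 11.97, Egfr 5.03, and Nrg1 0.0654 CPM per kilobase.

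The comparison of NeMO with Sham asks whether obstruction changed the levels of these transcripts. None of the 10 genes passed edgeR's quasi-likelihood test at a Benjamini-Hochberg adjusted p of 0.05 over all genes, a threshold that 12 of 16370 genes (0.0733%) passed. At an unadjusted p under 0.05, 1 of the 10 was higher in NeMO (Egfr) and 0 were lower, where 9.38% of all genes tested were higher and 9.14% lower. DESeq2 called the same gene at its adjusted threshold and no other of the 10, with 3.32% of all genes called higher. The median log2 fold change, NeMO over Sham, was 0.04 over the 10 genes and -0.0098 over all genes tested. The fits of each batch alone had the same sign for 5 of the 10 genes, with Areg, Ereg and Egfr higher in both and Egf and Btc lower in both, none past the threshold in either.

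**Figure D2:**
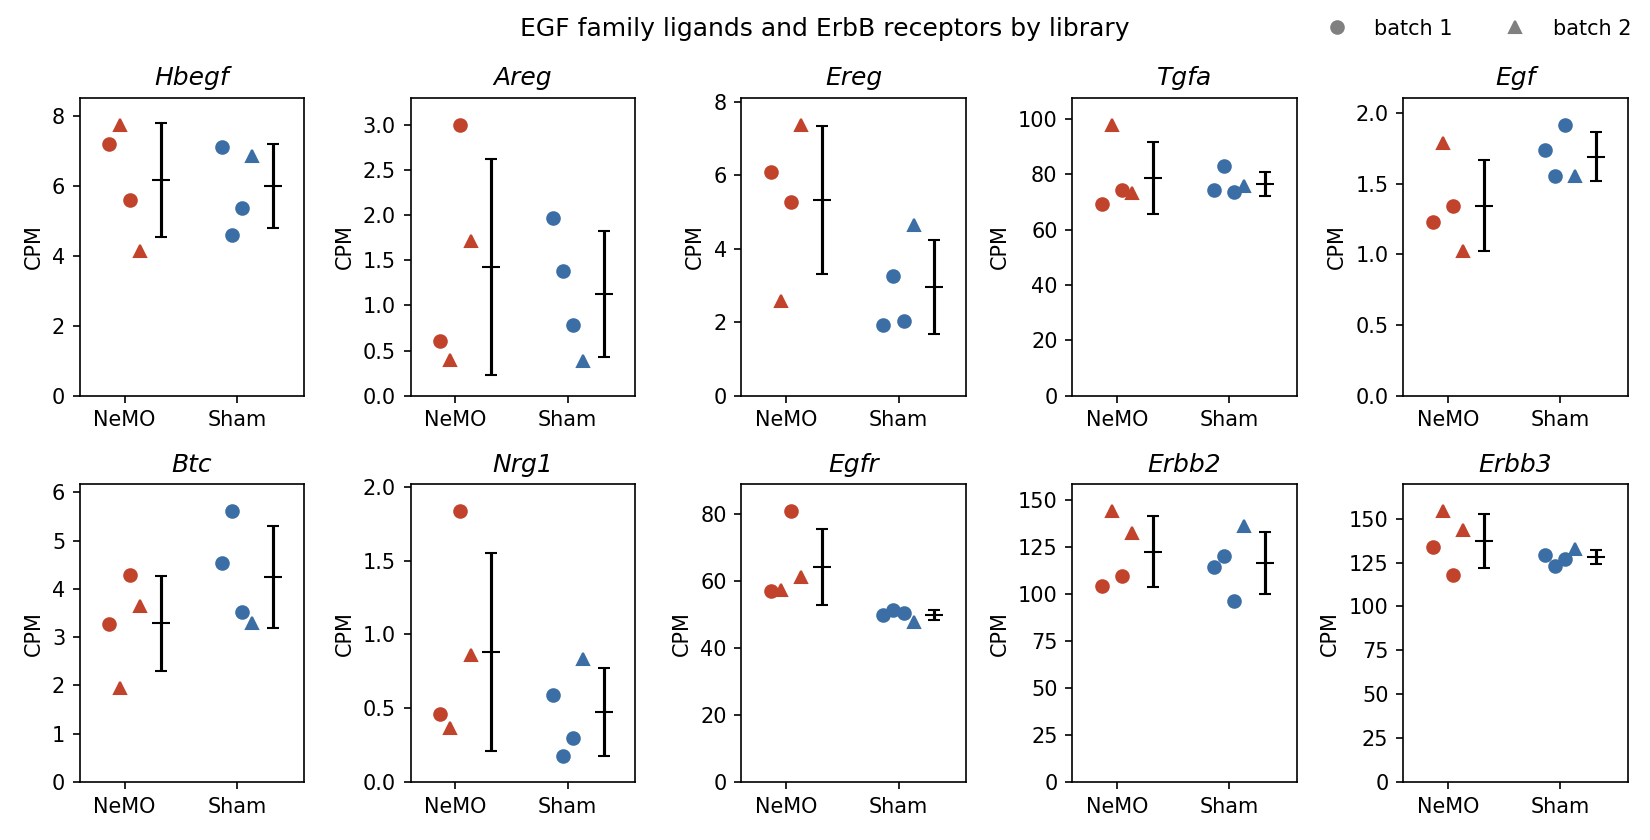
CPM of each gene in every library, with NeMO left of Sham, batch 1 as circles and batch 2 as triangles, and the mean with its SD as black bars (n = 4 each). The 4 NeMO libraries lie above the 4 Sham libraries for Egfr, at 57.2 to 80.9 against 47.8 to 51.3 CPM, and the groups overlap for the other 9 genes.

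Egfr, the receptor for EGF, TGF-alpha, amphiregulin and related ligands, was the gene that separated the groups. Egfr measured 57.2, 57.3, 80.9 and 61.3 CPM in NeMO replicates 1 to 4, against 49.9, 51.3, 50.6 and 47.8 CPM in Sham replicates 1 to 4. All 4 NeMO libraries lay above all 4 Sham libraries, a pattern that 4.39% of genes tested showed in this direction, and NeMO replicate 3 stood highest. Egfr averaged 64.2 ± 11.3 CPM in NeMO and 49.9 ± 1.501 CPM in Sham (SD, n = 4 each), a ratio of means of 1.29. The fitted log2 fold change was 0.40 (SE 0.11, 95% interval 0.16 to 0.64), with an unadjusted p that ranked 563 of the 16370 genes and an edgeR adjusted p of 0.122. DESeq2's Wald test gave 0.40 (SE 0.13, adjusted p = 0.0318) and limma voom gave 0.39 (adjusted p = 0.142). Batch 1 alone gave 0.45 and batch 2 alone 0.32.

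The size of the Egfr difference rested in part on NeMO replicate 3. Without that library the log2 fold change was 0.24 (edgeR adjusted p = 0.282). Without NeMO replicate 1 it was 0.51 and passed the threshold (edgeR adjusted p = 0.0284), as did 1.94% of genes in the same direction. The summed level of the 7 fibroblast markers was 8114, 7212, 16773 and 10873 CPM in NeMO replicates 1 to 4, against 7981 to 10595 CPM in Sham, and NeMO replicate 3 was highest. The collagen genes Col1a1 (5092 CPM) and Col1a2 (7287 CPM) supplied most of that sum in NeMO replicate 3, which was also highest for Pdgfra, Dcn and Lum. For the other two markers, Dpt (143 CPM) and Pi16 (264 CPM), it was the lowest of all 8 libraries. Egfr has a long transcript (10208 nucleotides), and with trends in transcript length and GC removed from each library its log2 fold change was 0.22 (edgeR adjusted p = 0.403). The part of the fibroblast markers or of the length trend in the Egfr result was not tested. Egfr lies on chromosome 11 (positions 16752203 to 16918158, plus strand, mm10).

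Erbb2 and Erbb3, the partner receptors, differed little between the groups, and their intervals were narrow. Erbb2 measured 105, 144, 110 and 133 CPM in NeMO replicates 1 to 4, against 115, 120, 96.4 and 136 CPM in Sham replicates 1 to 4. The high values belonged to batch 2, where the 3 libraries ran from 133 to 144 CPM, and the 5 libraries of batch 1 ran from 96.4 to 120 CPM, so Erbb2 separated the batches and not the groups. Its log2 fold change was -0.02 (SE 0.08, 95% interval -0.21 to 0.17, edgeR adjusted p = 0.927), which limits the fold to between 0.865 and 1.13. Its sign changed without the batch term (0.07).

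Erbb3 had the smallest spread between libraries of the 10 genes. It measured 134, 154, 118 and 143 CPM in NeMO replicates 1 to 4, against 129, 123, 127 and 133 CPM in Sham replicates 1 to 4. The NeMO libraries spread to both sides of the Sham libraries, which lay close together. The log2 fold change was 0.06 (SE 0.07, 95% interval -0.11 to 0.22, edgeR adjusted p = 0.729), a fold between 0.925 and 1.17. Erbb3 and its ligand neuregulin 1 are known for their part in Schwann cells, and in epithelia Erbb3 pairs with Erbb2. The fitted log2 fold change was below 0 for all 8 Schwann cell markers, 2 of them at an unadjusted p under 0.05 and none past the threshold, although Mbp averaged 82.1 CPM in NeMO and 81.7 CPM in Sham. Their summed level was 124 to 144 CPM in NeMO and 143 to 180 CPM in Sham. Over all genes tested, 8467 of 16370 were lower by the fit, and 9.14% were lower at an unadjusted p under 0.05. The fitted value was below 0 for 13 of the 15 urothelial markers, 6 of them at an unadjusted p under 0.05 and again none past the threshold. By group means Cdh1, Grhl3 and Elf3 were nevertheless higher in NeMO, beside Trp63 and Epcam, which were higher by both. The sum of the urothelial markers was 7504 to 10983 CPM in NeMO and 8857 to 11640 CPM in Sham. The median log2 fold change was -0.39 over the Schwann cell markers and -0.28 over the urothelial markers, and their part in the Erbb3 result was not tested.

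Tgfa, which encodes transforming growth factor alpha, was the steadiest of the ligands. It measured 69.2, 97.8, 74.3 and 73.4 CPM in NeMO replicates 1 to 4, against 74.2, 82.9, 73.8 and 75.6 CPM in Sham replicates 1 to 4. NeMO replicate 2 stood highest and the other libraries lay close together. The log2 fold change was -0.0022 (SE 0.11, 95% interval -0.24 to 0.24, edgeR adjusted p = 0.994), which limits the fold to between 0.844 and 1.18. The sign of so small a value turned in 11 of 19 alternatives.

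Ereg, which encodes epiregulin, a ligand of EGFR and ErbB4, had a larger difference between means. It measured 6.08, 2.58, 5.27 and 7.36 CPM in NeMO replicates 1 to 4, against 1.91, 3.25, 2.04 and 4.63 CPM in Sham replicates 1 to 4. NeMO replicates 1, 3 and 4 lay above every Sham library, while NeMO replicate 2 fell within the Sham range. Ereg averaged 5.32 ± 2.02 CPM in NeMO and 2.96 ± 1.27 CPM in Sham, with a log2 fold change of 0.82 (SE 0.37, 95% interval -0.02 to 1.67, edgeR adjusted p = 0.280). A difference at least as large was fitted for 5.52% of genes. The difference was 1.24 in batch 1 alone and 0.12 in batch 2 alone, where the single Sham library was the highest of its group. In the 8 fits that each left out 1 library, it stayed between 0.66 and 1.24, and it did not pass in any (edgeR adjusted p from 0.102 to 0.481).

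Areg, which encodes amphiregulin, an EGFR ligand made by epithelium, by some lymphoid cells and, in human, by mast cells, varied more between libraries than between groups. It measured 0.602, 0.397, 3.00 and 1.72 CPM in NeMO replicates 1 to 4, against 1.97, 1.39, 0.778 and 0.380 CPM in Sham replicates 1 to 4. The groups overlapped over nearly the whole range, and the highest library was 7.90 times the lowest. These values rest on 10 to 103 reads per library, and the coefficient of variation was 83.8% in NeMO and 61.8% in Sham, where counting error alone would give 14.2% in NeMO and 16.7% in Sham. The log2 fold change of 0.70 had a wide interval (SE 0.66, -0.81 to 2.21, edgeR adjusted p = 0.612) and was -0.0039 without NeMO replicate 3. The 8 markers of T cells and innate lymphoid cells, 4 fitted higher and 4 lower, summed to 299 to 359 CPM in NeMO and 288 to 374 CPM in Sham. Gata3 alone supplied 235 to 296 CPM of that in NeMO and 214 to 300.3 CPM in Sham, and Rora most of the rest. The T cell receptor component Cd3e measured 0.717, 0.497, 3.09 and 1.38 CPM in NeMO replicates 1 to 4, against 1.83, 0.970, 0.898 and 1.18 CPM in Sham replicates 1 to 4. Cd3e, Trbc2 and Il7r, singled out after their values were seen, were each highest in NeMO replicate 3 and, within Sham, in Sham replicate 1, as Areg was. Over all 8 libraries, the other markers of the list peaked elsewhere. Cd3d (2.36 CPM), Il2ra (3.59 CPM) and Gata3 (300.3 CPM) were highest in Sham replicate 1, and Il1rl1 (8.25 CPM) and Rora (70.4 CPM) in NeMO replicate 1. Within NeMO alone, Cd3d (1.69 CPM) and Il2ra (2.59 CPM) were also highest in replicate 3, whereas Gata3 (296 CPM) was highest in replicate 4. Of 6 mast cell and basophil markers tested, 5 were higher at an unadjusted p under 0.05, against 9.38% of all genes. None of them passed the adjusted threshold, and the list summed to 43.6 to 81.4 CPM in NeMO and 34.1 to 49.7 CPM in Sham. The sixth, Kit, ran the other way (log2 fold change -0.74), at 11.2 to 28.4 CPM in NeMO and 22.1 to 39.2 CPM in Sham, and supplied most of the sum in every Sham library. The part of these markers in the Areg values was not tested.

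Areg and Ereg are neighbours. On chromosome 5 the genes Epgn, Ereg, Areg and Btc lie within 376 kilobases (positions 91027464 to 91402994, mm10), with 45952 bases between Ereg and Areg. They did not share a pattern across the libraries. Areg was highest in NeMO replicate 3 and Sham replicate 1, Ereg was highest in NeMO replicates 4 and 1, and Btc was highest in Sham replicate 2.

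Hbegf, which encodes a heparin-binding ligand of EGFR and ErbB4, was not different on average. It measured 7.19, 7.75, 5.59 and 4.15 CPM in NeMO replicates 1 to 4, against 7.13, 4.61, 5.39 and 6.87 CPM in Sham replicates 1 to 4. The highest and the lowest library were both NeMO libraries. The log2 fold change was 0.03 (SE 0.24, 95% interval -0.51 to 0.57, edgeR adjusted p = 0.967), so folds between 0.701 and 1.48 lie within its interval.

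Btc, which encodes betacellulin, and Egf itself had lower means in NeMO. Btc measured 3.27, 1.95, 4.28 and 3.65 CPM in NeMO replicates 1 to 4, against 4.54, 5.61, 3.53 and 3.30 CPM in Sham replicates 1 to 4 (edgeR adjusted p = 0.630, log2 fold change -0.26, SE 0.26). Egf measured 1.23, 1.79, 1.34 and 1.02 CPM in NeMO replicates 1 to 4, against 1.74, 1.56, 1.92 and 1.56 CPM in Sham replicates 1 to 4 (edgeR adjusted p = 0.559, log2 fold change -0.34, SE 0.28). The groups overlapped for both genes, and for Egf it was NeMO replicate 2 that lay within the Sham range. Egf rests on 37 to 64 reads per library, so part of its spread is counting error. Umod and Slc12a1, defining markers of the kidney distal tubule, a known source of Egf, were at 0 in all 8 libraries. The other listed markers of that tubule were not all at 0. Over the 8 libraries Trpm6 averaged 0.996 CPM, Slc12a3 0.108 CPM and Calb1 0.0143 CPM.

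Nrg1, which encodes neuregulin 1, the ligand of ErbB3 and ErbB4, had the lowest level per kilobase of the 10 genes. It measured 0.459, 0.364, 1.84 and 0.858 CPM in NeMO replicates 1 to 4, against 0.589, 0.173, 0.299 and 0.836 CPM in Sham replicates 1 to 4, from 5 to 63 reads per library. NeMO replicate 3 stood above all other libraries and the rest overlapped. The log2 fold change was 0.90 (SE 0.64, 95% interval -0.55 to 2.34, edgeR adjusted p = 0.488). It was 1.68 in batch 1 alone, -0.43 in batch 2 alone and -0.04 without NeMO replicate 3. Areg and Egfr were highest in the same library.

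**Figure D3:**
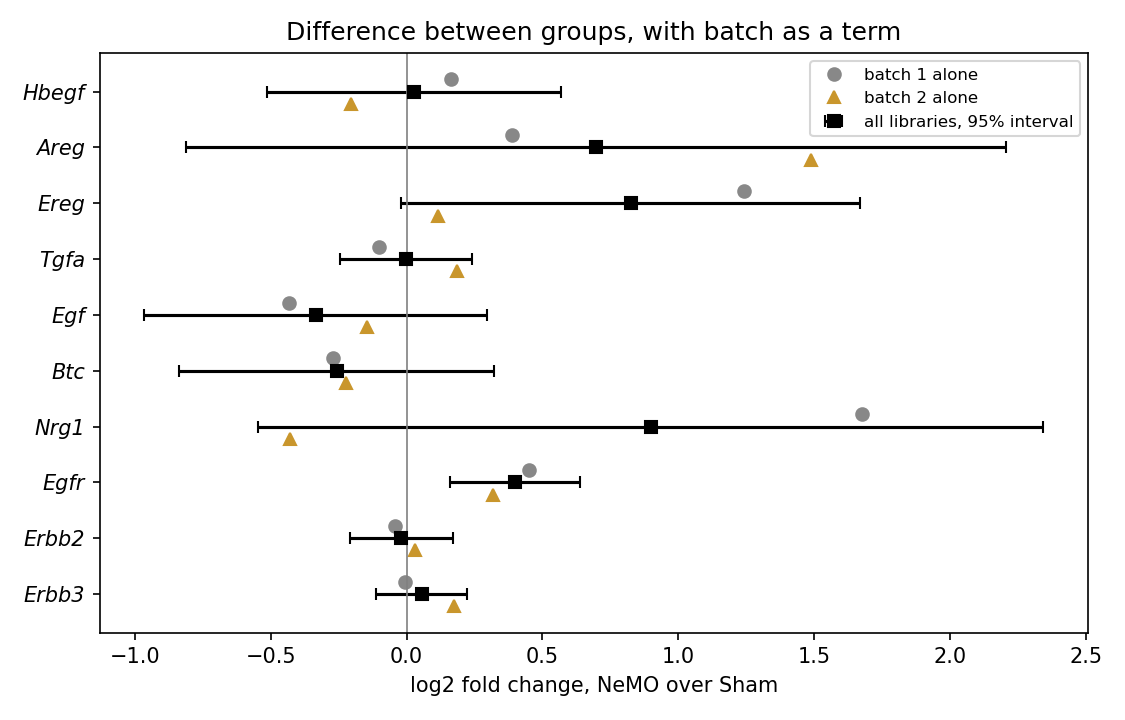
Log2 fold change of NeMO over Sham for each gene, with squares and 95% intervals from the edgeR fit to all libraries with batch as a term, circles from batch 1 alone and triangles from batch 2 alone. The Egfr interval (0.16 to 0.64) lies above 0, before adjustment over all genes, and the other 9 intervals include 0, with Areg and Nrg1 the widest.

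The spread between libraries set how much could be seen for each gene. The biological coefficient of variation that edgeR estimated was 0.0931 for Erbb3, 0.100 for Erbb2, 0.119 for Tgfa and 0.120 for Egfr, against 0.186 over all genes. It was between 0.248 and 0.370 for Egf, Hbegf, Btc and Ereg, and 0.580 for Nrg1 and 0.584 for Areg. For Areg and Nrg1 the intervals allow folds from 0.569 to 4.61 and from 0.685 to 5.08, so changes of that size are not excluded for either gene.

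Of the 5 remaining EGF family and receptor genes, Nrg2, Nrg4 and Erbb4 were tested and none passed the threshold. Nrg4, a neuregulin that binds ErbB4, measured 2.89, 1.95, 1.05 and 2.44 CPM in NeMO replicates 1 to 4, against 3.83, 2.29, 3.11 and 4.29 CPM in Sham replicates 1 to 4 (edgeR adjusted p = 0.263, log2 fold change -0.76, SE 0.33). Nrg2, another neuregulin, measured 4.86 to 9.63 CPM in NeMO and 8.55 to 11.3 CPM in Sham (-0.46, SE 0.21, edgeR adjusted p = 0.278). NeMO replicate 3 was the lowest library for both, where it was the highest for Nrg1. Erbb4, the receptor for neuregulins, was scarce at 0.0291 to 0.917 CPM in NeMO and 0.266 to 0.619 CPM in Sham, and Epgn and Nrg3 had too few reads to be tested.

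Among 14 genes for shedding and processing of the ligand precursors, 13 were higher in NeMO by the fitted log2 fold change, which gives the directions in all these lists, and none passed the threshold. Timp3, an inhibitor of metalloproteinases, was on the list and among the 13 (0.16, SE 0.14). The median log2 fold change of the list was 0.16, and over all genes tested 7903 of 16370 were higher. At an unadjusted p under 0.05, 4 were higher and 0 lower, where 9.38% of all genes were higher, and DESeq2 called 2 higher, where it called 3.32% of all genes. Adam12, a metalloproteinase reported to shed HB-EGF, measured 14.2, 10.5, 41.9 and 16.4 CPM in NeMO replicates 1 to 4, against 8.48, 8.31, 11.1 and 7.33 CPM in Sham replicates 1 to 4 (edgeR adjusted p = 0.133, log2 fold change 1.34, SE 0.36, DESeq2 adjusted p = 0.00213). NeMO replicate 3 was again the highest library, and NeMO replicate 2 lay below Sham replicate 3. Adam12 passed when NeMO replicate 1 was left out (log2 fold change 1.61, edgeR adjusted p = 0.0378), as did 1.94% of genes in the same direction. Bace1, a protease that cleaves neuregulin 1, measured 85.1 to 113 CPM in NeMO and 75.6 to 95.6 CPM in Sham (0.36, SE 0.10, edgeR adjusted p = 0.121). The main sheddases Adam17 and Adam10 were chosen for mention after their values were seen. Adam17 (0.15, SE 0.08) stood close to the median of the list and Adam10 (0.08, SE 0.09) below it.

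Among 26 adaptors and kinases downstream of the receptors, 18 were higher and 8 lower (median log2 fold change 0.03), and none passed the threshold. At an unadjusted p under 0.05, 4 were higher and 3 lower, where 9.38% of all genes were higher and 9.14% lower. Akt2, a kinase of the PI3K pathway, measured 64.1 to 84.2 CPM in NeMO and 85.0 to 109 CPM in Sham (edgeR adjusted p = 0.147, log2 fold change -0.33, SE 0.10). Akt2 passed when NeMO replicate 1 was left out (-0.46, edgeR adjusted p = 0.0192). In that fit 1.94% of genes passed as higher, against 0.0733% in either direction with all libraries. The share that passed as lower in that fit, the direction of Akt2, is not given here. The groups did not overlap for Akt2, lower in NeMO, a pattern seen in 3.81% of genes tested.

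Of 19 feedback inhibitors of the pathway 14 were higher in NeMO and none passed the threshold, with a median log2 fold change of 0.14. At an unadjusted p under 0.05, 6 were higher and 0 lower, and DESeq2 called 3 higher, against 9.38% and 3.32% of all genes higher by these rules and 7903 of 16370 higher in direction. Rasa1, a GTPase-activating protein that turns RAS off, measured 74.8 to 96.7 CPM in NeMO and 57.0 to 80.8 CPM in Sham (edgeR adjusted p = 0.0929, log2 fold change 0.37, SE 0.08). Rasa1 passed when NeMO replicate 1 was left out (0.43, edgeR adjusted p = 0.0407), as did 1.94% of genes in the same direction. It also passed with DESeq2 (adjusted p = 0.00807). Lrig2, a membrane protein related to the receptor inhibitor Lrig1, measured 35.996 to 42.5 CPM in NeMO and 30.3 to 32.8 CPM in Sham (0.30, SE 0.07, edgeR adjusted p = 0.108). The groups did not overlap for Lrig2, higher in NeMO, a pattern seen in 4.39% of genes tested. The Spry and Dusp genes of the list, chosen for mention after their values were seen, were not among the 6. Their log2 fold changes were 0.05 for Spry1, 0.01 for Spry2, -0.23 for Spry4, 0.14 for Dusp4, 0.12 for Dusp5 and -0.01 for Dusp6.

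Of 20 genes that respond to ERK signalling, 10 were higher and 10 lower (median log2 fold change -0.07), and none passed the threshold. At an unadjusted p under 0.05, where 9.38% of all genes were higher and 9.14% lower, 0 were higher and 1 lower. That gene, the immediate early gene Fos, measured 22.6, 18.5, 14.0 and 12.1 CPM in NeMO replicates 1 to 4, against 23.7, 43.0, 22.4 and 55.4 CPM in Sham replicates 1 to 4 (edgeR adjusted p = 0.170, log2 fold change -1.13, SE 0.35, DESeq2 adjusted p = 0.00815). Maff, a small MAF transcription factor, measured 13.1 to 26.4 CPM in NeMO and 6.71 to 16.4 CPM in Sham (0.60, SE 0.28, edgeR adjusted p = 0.300). The groups overlapped for both. DESeq2 called 0 of the 20 genes higher and 1 lower. It called 3.32% of all genes higher, and the share it called lower is not given here.

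**Figure D4:**
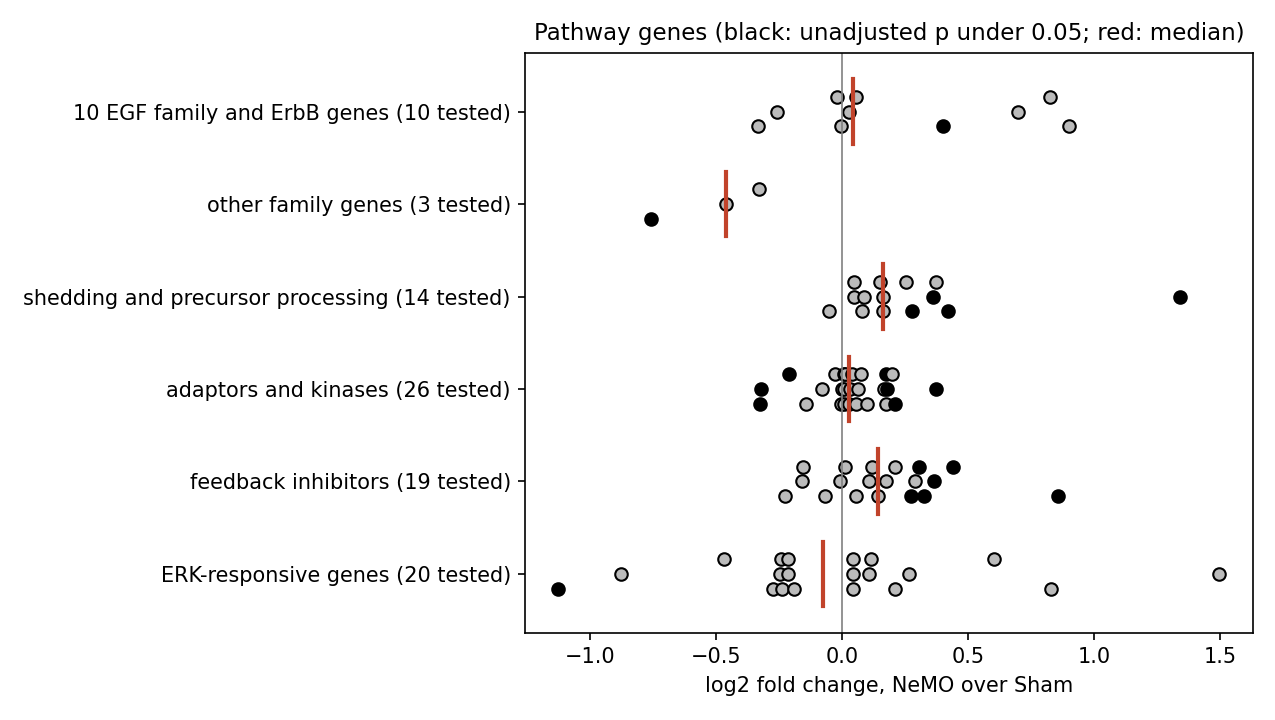
Log2 fold change of NeMO over Sham for the 10 genes and for the tested genes of 5 pathway lists, with a point per gene, black where the unadjusted edgeR p is under 0.05, and a red line at each median. The medians run from -0.46 over 3 other family genes to 0.16 over 14 shedding and processing genes, and no gene shown passed the adjusted threshold.

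The genes whose log2 CPM followed each member most closely over the 8 libraries were sought among 13249 tested genes with a mean of at least 1 CPM, leaving out gene models, pseudogenes and genes with clone or accession names. They are a description, since the highest of so many correlations over 8 libraries is always high. Egfr was most like Tnfaip8l3, Epha3 and Adamts6, each with a Pearson r of 0.98. Ereg was most like Tnks1bp1, Fhl3 and Dbn1 (r from 0.97 to 0.98), and Areg most like Tiparp, Bin2 and Nlrc3 (0.96 to 0.98). Erbb2 was most like Tjp3, Mkrn1 and Pwwp2b (0.97 to 0.99), and Erbb3 most like Entpd5, Snx29 and Cmtm4 (0.94 to 0.95). Tgfa was closest to Magt1, Nabp1 and Epb4.1l5 (0.96 to 0.97) and Hbegf to Mettl5, Gtf2a1 and Me3 (0.92). Egf was closest to Tmem209, Toe1 and Lmo3 (0.94 to 0.95) and Btc to Ufsp2, Gmfg and C2 (0.94 to 0.95). Nrg1 was below 1 CPM and was not compared.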

How the data were processed

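Bladder polyA RNA was sequenced in 8 libraries, with a directional kit and single-end reads per the labels' protocols. The authors deposited raw read counts for each gene symbol, with a file for each library; per the submitters' processing notes, Trimmomatic, STAR, featureCounts, DESeq2 and the mm10 build were used. The annotation, the strand setting and the treatment of multiply mapped reads are not given in the sources that were used, so an overlapping antisense gene could share reads with a member. Group and replicate were read from the titles, and batch from the file names.

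The software was edgeR 4.0.16, DESeq2 1.42.0 and limma 3.58.1 under R 4.3.3. The filter on low counts was filterByExpr (minimum count 10, minimum total 15), followed by TMM scaling. The two-sided test was edgeR's robust quasi-likelihood F-test on group, with batch as a further term, and p-values were adjusted by Benjamini-Hochberg over 16370 genes (threshold 0.05). The fit was also run on simulated counts with known fold changes but no batch effect, which cannot test its batch term. DESeq2 and limma voom were run on the same genes and terms. Positions and lengths come from GENCODE M21 on GRCm38, the assembly of mm10, which matched 35656 symbols directly and 1774 by a RefSeq synonym. The length and GC correction removed a spline (4 degrees of freedom each) from the deviations of each library from the means of the genes.

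The members and lists were chosen with earlier results of these data known. Named were all 10 members, of each of 5 pathway lists the 2 tested genes with the smallest p where none passed, and for each tested member of at least 1 CPM the 3 genes most correlated with it. A pathway gene that this rule named is not reported here. Summed marker levels not given with the results were as follows. Smooth muscle markers summed to 29628 to 54731 CPM in NeMO and 34753 to 46656 CPM in Sham. Macrophage and monocyte markers summed to 297 to 692 CPM in NeMO and 540 to 786 CPM in Sham. The 7 neuron markers were all lower by the fit (median log2 fold change -0.88), 2 at an unadjusted p under 0.05, against 9.14% of all genes. The neuron markers summed to 188 to 356 CPM in NeMO and 318 to 405 CPM in Sham, mostly Uchl1 (179 to 351 CPM in NeMO and 300.4 to 377 CPM in Sham). Endothelium markers summed to 304 to 512 CPM in NeMO and 345 to 418 CPM in Sham, and mesothelium markers to 255 to 389 CPM in NeMO and 331 to 594 CPM in Sham. Kidney distal tubule markers summed to 0.941 to 1.38 in NeMO and 0.228 to 1.70 in Sham, and male accessory gland markers to at most 0.0291 in NeMO and 0.139 in Sham. None of the markers passed the threshold. Adgre1 and Spink1 were not analysed here.

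Replicate numbers were not used to pair the samples in the main fit: the correlations of same-numbered deviations from the group means are given with the alternatives.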

Additional observations from a re-analysis of the deposited data

Results flagged for a closer look

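Dixon's gap test was applied to 64 groups of 4 values, and 2 were marked, where chance marks about 1 in 20. For Akt2, Sham replicate 4 stood at 108.9 CPM, far from the other 3 Sham libraries (85.0 to 87.7 CPM). For the male accessory gland markers, NeMO replicate 3 held 0.0291 CPM, a single read, and the other NeMO libraries were at 0.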

How the results depend on the processing

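Over all genes, the 12 past the threshold became 953 with DESeq2, 172 without the low-count filter, 5 with limma voom, 7 without the batch term, 7 in batch 2 alone and 0 in batch 1 alone (edgeR, 1756 at an unadjusted p under 0.05). With 1 library left out they numbered 0 to 652, with 0 in edgeR without NeMO replicate 4 (2549 at an unadjusted p under 0.05) and without Sham replicate 4 (1656). Of the 10 family genes, 1 (Egfr) passed with DESeq2 and 0 to 1 with 1 library left out, the call being made without NeMO replicate 1. Log2 fold changes that turned sign, none of them past the threshold, were as follows. In batch 2 alone Hbegf stood at -0.20, Tgfa at 0.19, Nrg1 at -0.43 and Erbb2 at 0.032, and in batch 1 alone Erbb3 stood at -0.0048. Without the batch term Tgfa was 0.038 and Erbb2 0.072, and after the length and GC correction Erbb3 was -0.014. Tgfa was 0.0031 with DESeq2's size factors, 0.0031 with its test, 0.0044 without a filter and 0.0011 with a filter of mean 1 CPM. With 1 library left out the ranges were -0.11 to 0.17 for Hbegf, -0.0039 to 1.26 for Areg, -0.10 to 0.064 for Tgfa, -0.036 to 1.67 for Nrg1, -0.070 to 0.023 for Erbb2 and -0.0055 to 0.12 for Erbb3. The causes were not tested.

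Deviations of same-numbered libraries had correlations of -0.25, 0.13, -0.21 and -0.07, and those of differently numbered libraries ran from -0.64 to 0.34. With 4 libraries in each group, these values cannot settle whether the numbers pair the samples. A replicate block beside the batch term left 2 genes past the threshold, with Hbegf at -0.22 and Erbb2 at 0.0059. The block in place of the batch term left 0 (edgeR, 2648 at an unadjusted p under 0.05), with Tgfa at 0.027 and Erbb2 at 0.070, and no family gene passed under either. For Egf the spread was of a size similar to counting error. Its coefficient of variation was 24.0% in NeMO and 10.1% in Sham, where counting error gives 14.9% in NeMO and 13.8% in Sham. For Nrg1 it was 76.5% in NeMO and 62.7% in Sham, above the 18.2% in NeMO and 26.5% in Sham from counting.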
